A study of Rattus norvegicus with 6 samples.

Results

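The interferon regulatory factor (IRF) family was examined in RNA-seq of cardiac fibroblasts of newborn rats (NRCFs), a primary culture from the hearts of healthy Sprague-Dawley rats no older than 3 days. The strain label of all the libraries reads Noway. Members were 8 of 21857 gene symbols, Irf1, Irf2, Irf3, Irf4, Irf5, Irf7, Irf8 and Irf9. They were taken by name, though with earlier results of these data known. All cells were transfected, either with the empty pcDNA 3.1 plasmid (Vector group, genotype label WT, 3 libraries) or with the same plasmid carrying rat FTO, an RNA m6A demethylase (genotype label FTO overexpression, 3 libraries), at 1 µg/ml for 48 h. The methods do not say whether replicates came from separate isolations, so the p-values measure the spread between these libraries, which may be technical.

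The libraries held 13178952 to 17857999 counted reads. Values are CPM, read counts scaled to library size with TMM factors, given as mean ± SD of 3 libraries, and 3 counts in a library were worth 0.168 to 0.227 CPM. Fto itself was at 87.8, 89.6 and 87.4 CPM in the Vector libraries and at 93.2, 90.8 and 92.9 CPM in the FTO-labelled ones. Each of the latter was above each Vector library, but the step of 0.06 (SE 0.0468) on the log2 scale did not pass the edgeR quasi-likelihood test (adjusted p-value 0.239), so these samples are called FTO-labelled libraries throughout. The study reports that transfection of the FTO plasmid was checked by qRT-PCR and by FTO protein level, and that m6A fell in a dot blot. It does not say whether those assays used the cells of these libraries. The fibroblast markers Col1a1, Col3a1, Fn1, Pdgfra and Vim were present in all libraries, but of 12 fibroblast markers 5 rose and 6 fell. Marker counts are at an adjusted p-value under 0.05 in edgeR, which called 33.2% of all genes tested higher and 32.8% lower. Col1a1 fell from 25809 ± 337 to 8268 ± 377 CPM and Vim from 3161 ± 104 to 1250 ± 72.8 CPM, while Pdgfra rose from 173 ± 5.02 to 976 ± 91.0 CPM and Dcn from 47.0 ± 1.57 to 5611 ± 221 CPM. Of the markers of other cell types, 9 of 10 tested for cardiomyocytes, 4 of 6 for endothelium and 4 of 6 for epithelium and mesothelium rose, with 1 lower in each list. Their summed levels went from 1739 to 1774 up to 2735 to 2822 CPM, from 33.7 to 36.4 up to 57.7 to 62.2 CPM and from 27.9 to 29.5 up to 121 to 131 CPM, and their part in the Irf values was not tested.

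IRF proteins are transcription factors that share a DNA-binding domain with a run of conserved tryptophans and read pairs of GAAA repeats, the core of the interferon-stimulated response element (ISRE). IRF3 is known as a factor that lies ready in most cells and is switched on by phosphorylation, whereas IRF7, IRF1 and IRF9 are known as products of genes that interferon or NF-κB signalling raises. IRF9 joins STAT2 in the complex ISGF3, which acts below the type I interferon receptor. From that knowledge the members were put into an inducible class (Irf1, Irf7, Irf9), a constitutive class (Irf2, Irf3) and an immune-restricted class known mainly from myeloid and lymphoid cells (Irf4, Irf5, Irf8).

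To show the DNA that precedes members of each main class, the 250 bases before the RefSeq gene start were read for the genes on which the comparison turns. RefSeq sequences (build GRCr8) were matched for 7 of the 8 members, all but Irf2, and are written 5′ to 3′ on the strand of the gene. Irf7 is at chr1:205800024-205800273 on the minus strand. Irf9 is at chr15:33065586-33065835, Irf1 at chr10:38417685-38417934 and Irf3 at chr1:104616358-104616607, all on the plus strand. The capitals mark matches to any of 4 motifs searched on both strands, namely the ISRE core GAAANNGAAA, the same pair with 1 base between (GAAANGAAA), the STAT element TTCNNNGAA known as GAS, and the NF-κB consensus.
Irf7: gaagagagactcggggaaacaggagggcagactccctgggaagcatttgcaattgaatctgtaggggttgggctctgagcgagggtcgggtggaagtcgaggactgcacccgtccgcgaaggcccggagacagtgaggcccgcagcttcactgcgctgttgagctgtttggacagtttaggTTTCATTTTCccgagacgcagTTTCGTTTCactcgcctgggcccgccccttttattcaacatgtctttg
Irf9: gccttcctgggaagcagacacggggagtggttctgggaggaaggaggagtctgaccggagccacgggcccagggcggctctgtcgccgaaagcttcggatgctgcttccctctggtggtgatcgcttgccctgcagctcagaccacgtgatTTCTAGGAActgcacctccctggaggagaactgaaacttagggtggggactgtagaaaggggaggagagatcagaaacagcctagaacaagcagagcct
Irf1: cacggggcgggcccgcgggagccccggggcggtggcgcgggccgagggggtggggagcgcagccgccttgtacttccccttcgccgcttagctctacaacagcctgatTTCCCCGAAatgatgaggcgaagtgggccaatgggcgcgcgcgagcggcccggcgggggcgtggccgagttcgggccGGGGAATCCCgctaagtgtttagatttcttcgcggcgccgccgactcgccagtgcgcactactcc
Irf3: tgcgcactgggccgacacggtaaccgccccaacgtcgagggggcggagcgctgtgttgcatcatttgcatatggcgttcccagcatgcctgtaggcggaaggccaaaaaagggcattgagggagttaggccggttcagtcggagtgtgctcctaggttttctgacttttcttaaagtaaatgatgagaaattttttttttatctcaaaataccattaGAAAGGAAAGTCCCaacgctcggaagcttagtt

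Of the 7 members with a sequence, Irf7 alone held the ISRE core, 69 to 60 bases before its start, next to the pair with 1 base between, 48 to 40 bases before it. Irf1 held 1 GAS, 142 to 134 bases before the start, and 1 NF-κB match, 65 to 56 bases before it. Irf9 held 1 GAS (99 to 91 bases) and Irf8 held 2 of them (180 to 172 and 161 to 153 bases). In Irf3 the pair with 1 base between (33 to 25 bases) overlapped an NF-κB match (29 to 20 bases). Irf4 and Irf5 held none of the 4 motifs in this window. Among 27457 promoters of the same length, 3.32% held the ISRE core, 2.91% the closer pair, 7.56% a GAS and 6.39% an NF-κB match. A match describes the letters and is not evidence of binding.

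**Figure D1:**
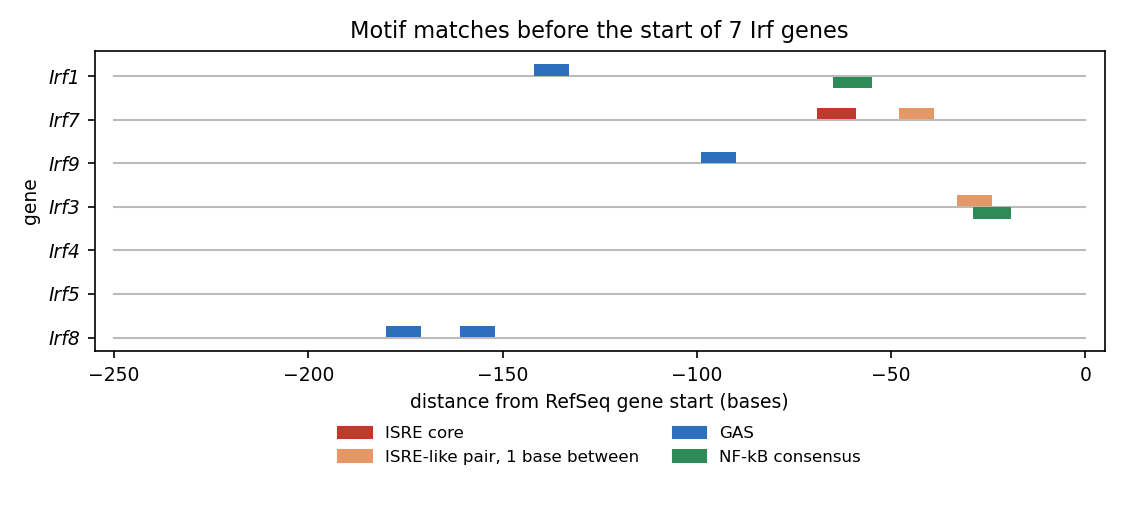
Position of each motif match in the 250 bases before the RefSeq gene start of 7 Irf genes (x axis, distance from the start in bases; coloured bars, matches on either strand; grey lines, the window read). The ISRE core (red) appears in Irf7 only, and GAS matches (blue) appear in Irf1, Irf9 and Irf8.

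The first question was which family members differed between the groups. Irf7 rose from under 6 CPM to 1352 CPM or more, Irf9 rose 3.83-fold, Irf1 rose 1.95-fold, and Irf8, Irf2 and Irf5 rose by 1.47-fold or less, whereas Irf3 fell to 0.795 of its Vector level. Of the 8 members, 7 passed the filter on low counts, and all 7 passed an adjusted p-value under 0.05, with 6 higher and 1 lower. Over all 12941 genes tested the same threshold called 65.9%, with 33.2% higher and 32.8% lower, so the number of members called is not in itself particular to the family. At the threshold given in the methods, a log2 fold change of at least 1 in size with an unadjusted p-value under 0.05, 2 members were called (Irf7 and Irf9), against 19.6% of all genes. Vector and FTO-labelled values stood apart without overlap for the 7 tested members, against 70.3% of all genes.

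Irf7, the factor known for amplifying type I interferon production, was at 5.85, 4.29 and 4.64 CPM in the Vector libraries, from 80, 64 and 67 counts. It was at 1483, 1468 and 1352 CPM in the FTO-labelled libraries, from 21139, 19440 and 24204 counts. Every library labelled FTO was far above every Vector library, and the spread within each group was small beside the gap. The mean rose from 4.93 ± 0.819 to 1434 ± 71.8 CPM, or by 8.19 on the log2 scale (SE 0.0802, edgeR adjusted p-value 9.4e-19). As a fold this spans 259 to 328 at 95% confidence. By fitted log2 fold change Irf7 ranked 36 among the 12941 genes tested. Phrf1, which lies within 1000 bases of Irf7 in RefSeq, was at 71.0 ± 2.95 and 68.8 ± 5.59 CPM.

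Irf9, the DNA-binding subunit of ISGF3, was at 26.7, 23.3 and 25.9 CPM in the Vector libraries and at 94.8, 97.7 and 98.2 CPM in the FTO-labelled ones. The groups stood well apart and each was tight. On the log2 scale Irf9 rose by 1.94 (SE 0.0620, edgeR adjusted p-value 3.5e-13), with a 95% interval of 1.81 to 2.07. Rnf31, a ubiquitin ligase gene within 1000 bases of Irf9, also rose, by 0.37 on the log2 scale (SE 0.0814, adjusted p-value 9.9e-04 in edgeR).

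Irf1, the first described member and an activator of antigen presentation genes, was at 27.7, 24.4 and 24.9 CPM in the Vector libraries and at 51.4, 48.6 and 50.4 CPM in the FTO-labelled ones. Again no Vector library reached any library labelled FTO. Irf1 rose by 0.97 on the log2 scale (SE 0.0685, edgeR adjusted p-value 6.3e-09). Its 95% confidence interval of 0.82 to 1.12 spanned a doubling, and without Vector replicate 1 the estimate was 1.02, which added Irf1 to the members called at the threshold of the methods and made 3.

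**Figure D2:**
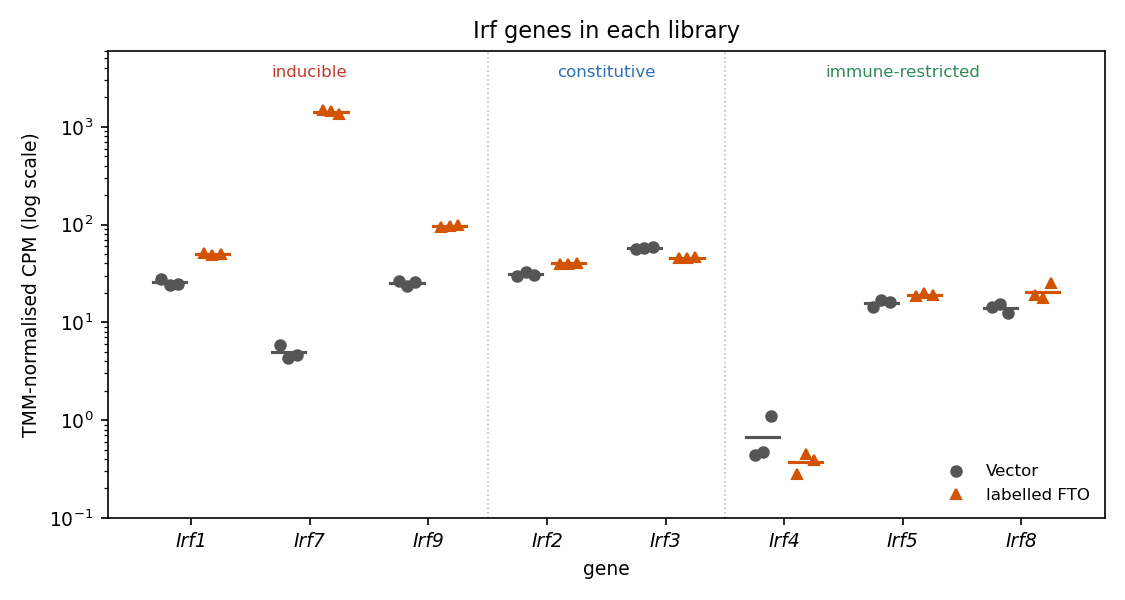
CPM of each Irf gene on a log scale (y axis) in every library, by class (x axis). Circles are Vector libraries, triangles are libraries labelled FTO, and short lines are group means. Irf7 moves from 4.29 to 5.85 CPM up to 1352 to 1483 CPM, while Irf3 is the called member whose libraries labelled FTO lie below the Vector ones.

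The constitutive members moved little, and in opposite directions. Irf3, the factor that receives signals from cytosolic nucleic acid sensors and Toll-like receptors, was at 56.7, 58.0 and 58.9 CPM in the Vector libraries and at 45.1, 45.9 and 47.1 CPM in the FTO-labelled ones. Each library labelled FTO was below each Vector library. The fitted step was -0.33 on the log2 scale (SE 0.0556, edgeR adjusted p-value 9.5e-05). The gene span of Irf3 overlaps that of Bcl2l12 by 865 bases in RefSeq, and since the use of strand in the counting is not given in the sources used here, shared reads cannot be told apart. Bcl2l12 was at 16.3 ± 0.985 and 17.2 ± 2.72 CPM, and its step of 0.07 on the log2 scale did not pass (SE 0.111, adjusted p-value 0.591 in edgeR).

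Irf2, known to compete with IRF1 for the same sites, was at 30.1, 32.9 and 30.8 CPM in the Vector libraries and at 39.6, 40.0 and 40.7 CPM in the FTO-labelled ones. The groups did not overlap, and the step was small. Irf2 rose by 0.36 on the log2 scale (SE 0.0649, edgeR adjusted p-value 1.8e-04). Summed over Irf2 and Irf3, the constitutive class held 89.1 ± 2.11 CPM with Vector and 86.1 ± 1.58 CPM with the FTO label, and the groups overlapped. These small steps are relative to the other genes of each library, since total RNA per cell was not measured.

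The inducible class, summed over Irf1, Irf7 and Irf9, was at 52.0 to 60.2 CPM in the Vector libraries and at 1500 to 1629 CPM in the FTO-labelled ones, a 28.3-fold difference of the means. Most of that was Irf7. Without it, Irf1 and Irf9 together were at 51.0 ± 3.33 and 147 ± 1.35 CPM, 2.89-fold higher. All 3 inducible members rose, with log2 fold changes of 0.97 to 8.19, and the 2 constitutive members were at -0.33 and 0.36. The 95% confidence intervals of the log2 fold changes of Irf7, Irf9 and Irf1 did not overlap one another or those of Irf2 and Irf3. Irf8 (0.29 to 0.83), Irf2 (0.22 to 0.50) and Irf5 (0.08 to 0.46) could not be placed in order, because their intervals overlapped, and the interval of Irf8 also touched that of Irf1. The middle 50% of all genes tested lay between -0.36 and 0.36, a range that holds the estimates of Irf2, Irf5 and Irf3 and not those of Irf8, Irf1, Irf9 and Irf7.

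**Figure D3:**
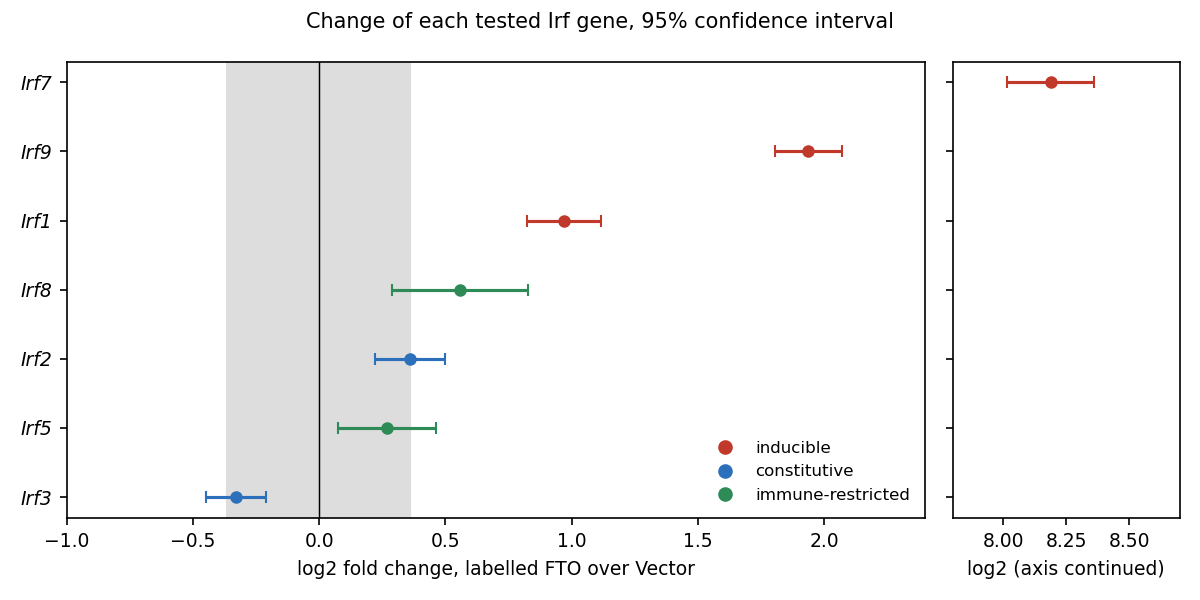
Log2 fold change, FTO-labelled over Vector (x axis, in 2 panels of equal scale) for the 7 tested Irf genes, with bars for the 95% confidence interval. The grey band holds the middle 50% of all tested genes, and Irf7, at 8.19, lies in the right panel far from the other members.

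Ratios of reads between members within a library do not depend on the scaling, and their change between groups does not depend on gene length. The ratio of Irf7 to Irf3 reads was 0.103, 0.0741 and 0.0787 in the Vector libraries and 32.9, 32.0 and 28.7 in the FTO-labelled ones, a 365-fold change of the mean. The ratio of Irf9 to Irf3 changed from 0.438 ± 0.0341 to 2.11 ± 0.0216, and that of Irf1 to Irf2 from 0.823 ± 0.0903 to 1.25 ± 0.0435. In none of the 3 ratios did the groups overlap. Of all reads counted on the 8 members, Irf7 held 2.81% ± 0.460 in the Vector group and 84.0% ± 1.01 in the FTO-labelled libraries, and the share of Irf3 went from 33.0% ± 0.740 to 2.70% ± 0.163. These are shares of reads and not of molecules, as transcript lengths were not used here, so they do not order the genes by level. The summed CPM of the 8 members went from 176 ± 0.560 to 1707 ± 65.3, and without Irf7 from 171 ± 0.655 to 273 ± 6.50.

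**Figure D4:**
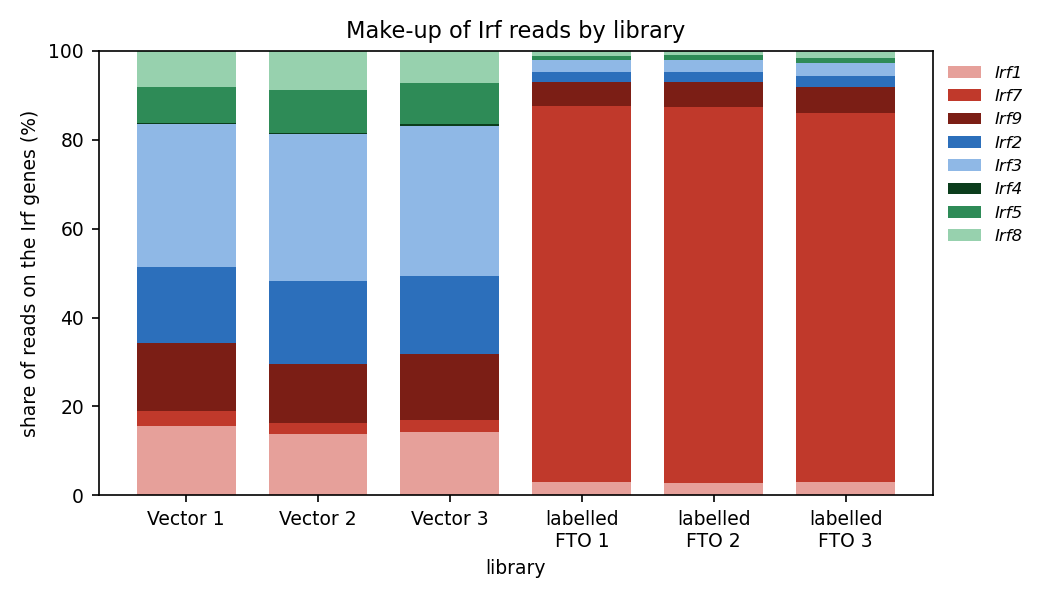
Share of the reads counted on the 8 Irf genes that each gene held (y axis, percent) in each library (x axis). Irf7 fills 2.44% to 3.32% of the bar in the Vector libraries and 82.8% to 84.7% in the FTO-labelled libraries.

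The immune-restricted members Irf8 and Irf5 rose by small steps, and Irf4 was barely detected. Irf8, which with PU.1 directs myeloid development, was at 14.3, 15.5 and 12.6 CPM in the Vector libraries and at 19.1, 17.8 and 25.0 CPM in the FTO-labelled ones. FTO replicate 3 was the highest of these and the groups did not overlap. Irf8 rose by 0.56 on the log2 scale (SE 0.126, adjusted p-value 0.00117 in edgeR), and by 0.38 without FTO replicate 3 (adjusted p-value 0.00473 in edgeR). Irf5, known for driving inflammatory cytokine genes in macrophages, was at 14.4, 16.9 and 16.1 CPM and at 18.5, 19.8 and 18.9 CPM, again without overlap. Its log2 fold change of 0.27 (SE 0.0904) had an adjusted p-value of 0.0163 in edgeR, and without Vector replicate 1 it was 0.21 with an adjusted p-value of 0.0840, which no longer passed.

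Macrophage markers moved the other way. Of 17 measured, 16 fell and 1 (Adgre1) rose, against 32.8% lower and 33.2% higher over all genes. Their summed level was 2054 to 2119 CPM in the Vector libraries and 363 to 411 CPM in the FTO-labelled ones. Lyz2 (lysozyme) fell from 1117 ± 22.8 to 97.6 ± 5.80 CPM, Mrc1 from 195 ± 1.78 to 47.5 ± 1.93 CPM and Csf1r from 142 ± 2.31 to 9.18 ± 1.29 CPM, and C1qb, C1qc and Cx3cr1 were at 3 counts or fewer in every FTO-labelled library. Spi1, which encodes PU.1, fell from 28.4 ± 1.24 to 6.22 ± 0.566 CPM. In bulk RNA, fewer cells of a type and less RNA per cell cannot be told apart, and the part of macrophages in the levels of Irf5 and Irf8 was not tested.

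Irf4, a factor of lymphocytes and dendritic cells, had 6, 7 and 16 counts in the Vector libraries and 4, 6 and 7 in the FTO-labelled ones. It did not pass the filter. In the fit without a filter its log2 fold change was -0.83 (SE 0.552) with a 95% confidence interval of -1.95 to 0.28, too wide to show a difference at this depth. Of 13 lymphoid markers, 10 had at most 3 counts in every library, among them Cd79a, Ms4a1 and Cd3e. The 3 others were measurable, and Cd4 fell from 28.6 ± 1.38 to 6.61 ± 1.05 CPM and Cd8a from 4.15 ± 0.426 to 0.195 ± 0.0386 CPM, while Lck (1.73 ± 0.607 and 1.16 ± 0.161 CPM) did not pass. Cd3d, Cd3e, Ms4a1 and Nkg7 had 0 counts in every library, and the fall of Cd4 and Cd8a was not assigned to a cell type. Of 3 dendritic cell markers tested, 1 rose and 1 fell, against 33.2% higher and 32.8% lower over all genes. Itgax fell from 21.0 ± 1.52 to 6.39 ± 0.722 CPM, Clec10a rose from 3.89 ± 0.483 to 6.49 ± 1.19 CPM, and Zbtb46 did not pass. The part of lymphoid or dendritic cells in the level of Irf4 was not tested.

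Genes that act above the IRF proteins were then counted. Interferon transcripts were nearly absent. Of 11 interferon genes in the table, including Ifnb1, Ifng and 5 Ifna genes, 10 had 0 counts in all 6 libraries, which allows at most 0.227 CPM in any of them by counting error. The exception was Ifne, with 2, 0 and 0 counts in the Vector libraries and 1, 0 and 8 in the FTO-labelled ones. Of the 9 receptor and kinase genes, 7 rose and none fell, against 33.2% higher and 32.8% lower over all genes. Their median log2 fold change was 0.65, against 0.00 over all genes. Jak2 rose from 98.1 ± 3.62 to 808 ± 29.2 CPM, or by 3.04 on the log2 scale, and the receptor chains Ifngr1 and Ifnlr1 rose by 1.80 and 1.48. Jak1 (-0.06) and Tyk2 (-0.14), the kinases of the type I receptor, did not pass (adjusted p-values 0.310 and 0.0973 in edgeR). Without FTO replicate 3 both were called lower, at -0.12 and -0.19 (adjusted p-values 0.0185 and 0.0351 in edgeR), so that 9 of 9 were called.

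Stat2, the partner of Irf9 in ISGF3, rose from 65.0 ± 0.898 to 358 ± 15.5 CPM, or by 2.46 on the log2 scale, and Stat3, which is no part of ISGF3, rose by 0.98.

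Of 13 sensor and adaptor genes tested, 9 rose and 3 fell, against 33.2% higher and 32.8% lower over all genes. Their median log2 fold change was 0.69. The RNA helicase genes Dhx58 and Ddx58 (RIG-I) rose by 4.96 and 2.76, and Zbp1, a sensor of Z-form nucleic acid, by 3.85. Tlr8 changed by -2.21 and Ticam2, an adaptor of Toll-like receptor signalling, by -0.97, and Tlr7 did not pass (-0.19, adjusted p-value 0.0913 in edgeR) but was called without Vector replicate 3 (-0.28, adjusted p-value 0.0258 in edgeR). Mavs, the adaptor through which RIG-I reaches IRF3, was lower too, by -0.40 (SE 0.0757, adjusted p-value 2.4e-04 in edgeR). It was singled out after its value was seen.

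The kinases, scaffolds and ubiquitin ligases that lead to IRF phosphorylation followed. Of 14, 9 rose, 1 fell and 4 did not pass, against 33.2% higher and 32.8% lower over all genes. Their median was 0.35, and the number called in either direction is near the share of 65.9% over all genes. The ligase Trim25 rose by 1.93, the kinase Ikbke (IKKε) by 1.35 and the scaffold Tank by 1.13, and the kinase Chuk changed by -0.14 (adjusted p-value 0.0491 in edgeR), a call that was lost in 10 of 13 alternatives, among them each fit without a single library except FTO replicate 1. Tbk1, the kinase best known for phosphorylating IRF3, was at 47.0 ± 3.78 and 60.2 ± 4.34 CPM, a change of 0.36 (SE 0.0713), and was also chosen after its value was seen.

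Of 12 partners and corepressors of the IRF proteins tested, 4 rose, 4 fell and 4 did not pass, with a median of -0.11. These shares are those of all genes (33.2% higher and 32.8% lower), and the number called was 6 to 9 under the alternatives. Nlrc5, an activator of MHC class I genes, rose by 3.50 and Spi1 fell by 2.20 on the log2 scale. The coactivator Ep300 was called at -0.46, but its groups overlapped (22.3, 25.0 and 20.6 CPM in the Vector libraries against 16.0, 11.4 and 21.2 CPM), and it was not called in 3 alternatives, DESeq2 and the fits without Vector replicate 2 or without FTO replicate 1. Batf2, a partner of IRF1, had at most 1 count in a Vector library and was at 1.60 ± 0.322 CPM in the FTO-labelled libraries, at least 7.31-fold higher against 3 counts per library, and it was singled out after its value was seen. All 13 feedback inhibitors tested rose, against 33.2% higher over all genes, with a median of 0.76. The smallest rise was 0.15, for Ptpn11. Usp18, which blocks the type I receptor, rose by 6.79, Isg15 by 6.77 and Tnfaip3 (A20) by 3.51.

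**Figure D5:**
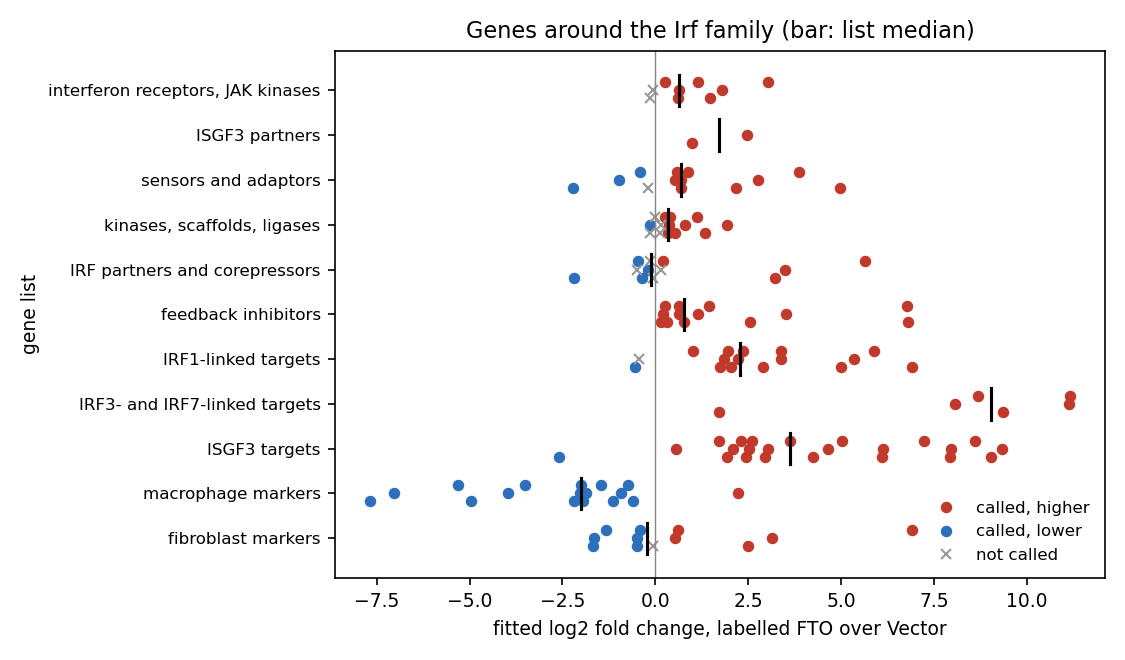
Fitted log2 fold change, FTO-labelled over Vector (x axis), for each tested gene of the lists around the Irf family and for macrophage and fibroblast markers (rows). Points are genes coloured by call at an adjusted p-value under 0.05 and black bars are list medians, lowest for the macrophage markers and highest, at 9.03, for the IRF3- and IRF7-linked targets.

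Genes known as targets of each factor were compared last. These lists overlap in biology, since most of the genes answer to more than 1 IRF. Of 16 IRF1-linked genes tested, 14 rose, 1 fell and 1 did not pass, against 33.2% higher and 32.8% lower over all genes. Their median was 2.29. The guanylate-binding protein genes Gbp1 and Gbp5 rose by 6.90 and 5.34 and the adhesion gene Vcam1 by 5.88, while Il15 changed by -0.54 and Il12a (-0.44) did not pass (adjusted p-value 0.269 in edgeR). All 6 tested genes linked to IRF3 and IRF7 rose, against 33.2% higher over all genes. Their median was 9.03, or 8.19 with genes absent from Vector set to their bounds. Ifit1 and Ccl5 had at most 2 counts in a Vector library and reached 125 ± 11.6 and 70.7 ± 2.05 CPM, at least 571-fold and 322-fold higher, and Ifit3 rose by 9.36.

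Of 23 ISGF3 targets tested, 22 rose and 1 fell, against 33.2% higher and 32.8% lower over all genes. Their median was 3.61. Rsad2 (viperin) was at least 573-fold higher, and the antiviral GTPase genes Mx2 and Mx1 rose by 9.02 and 8.60. Epsti1 changed by -2.59 (SE 0.251), from 3.89 ± 0.318 to 0.630 ± 0.0855 CPM.

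Lastly, genes with the pattern most like that of each called member were sought, as those with the smallest root mean square difference of log2(CPM + 1), centred on the Vector mean, over the 6 libraries and among 10035 genes with a mean of at least 100 counts. Centred this way, the distance rests largely on the step between the groups, and shared regulation was not tested. Closest to Irf7 were Mx2, Ifit3 and Mx1, at 0.145, 0.216 and 0.317. These distances depend on the added 1 CPM, since the Vector means were 0.726, 0.742 and 0.894 CPM against 4.93 CPM for Irf7. The fitted log2 fold changes of the 3 genes were 9.02, 9.36 and 8.60, against 8.19 for Irf7. Closest to Irf9 were Sp110, Gramd4 and Tapbp (0.0515 to 0.0760), and closest to Irf1 were Ctps2, Gtpbp1 and Acyp2 (0.0295 to 0.0428). The smaller steps of Irf2, Irf3, Irf5 and Irf8 had neighbours at 0.0148 to 0.0783, with Scamp1, Copa, Ubl5 and Atp10d the closest to each.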

How the data were processed

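RNA-seq libraries were prepared from total RNA of NRCFs with a NEBNext Ultra kit. Unnormalized read counts were deposited for each library, as whole numbers by gene symbol. The submitters' processing notes name Trimmomatic and the genome build rn6. The aligner, counting program, annotation and use of strand are not given in the sources used here. RefSeq promoter sequences are from GRCr8, another build, and were matched by symbol.

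Groups were taken from the genotype labels. The filterByExpr function of edgeR (minimum count 10) retained 12941 genes. Counts were scaled by TMM and compared with the two-sided quasi-likelihood test of edgeR 4.0.16 in R 4.3.3, with Benjamini-Hochberg adjustment over all genes tested and called at 0.05. DESeq2 1.42.0 and limma 3.58.1 served as alternatives, beside other scalings and filters, a replicate block and leaving out single libraries. The procedure was tested on simulated data. Within-group pairs differed by more than sampling noise (chi-square per degree of freedom 1.56 to 8.49). The 95% confidence intervals come from the edgeR fit and include the spread between these libraries. Limits from 3 counts cover counting error only, as the reads carry no molecular identifiers.

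The members, gene lists and motifs were chosen with earlier results of these data known, and the motifs after the sequences were seen. Named in the text are all members, Fto, and per list the 3 largest called changes with a mean of at least 20 counts, the 2 largest called in the other direction, and members not called where 3 or fewer. Marker genes named are among the most abundant of their lists or are defining ones at the floor. Ifna1, Ifna7, Ticam1, Nos2, Xaf1 and Itgam are not analysed here, and some genes of the family and the lists are not reported here.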

Additional observations from a re-analysis of the deposited data

How the results depend on the processing

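The log2 fold changes of Fto and the 7 tested members kept their direction and side of the adjusted threshold under each of 13 alternatives, except Irf5 (0.21 without Vector replicate 1, within a range of 0.21 to 0.32 over the fits that left out 1 library). The fold of the inducible class, 28.3, was 18.9 with Irf5 and Irf8 added to it. The number of members called was 6 to 7 and at the threshold of the methods 2 to 3, and the number of genes called was 7795 to 9009. Counts called in the pathway lists equalled the reported ones in 112 of 130 cases, and ranged from 7 to 9 for receptors and JAK kinases, 12 to 13 for sensors, 9 to 10 for kinases, 6 to 9 for partners and 15 to 16 for IRF1-linked genes. The cases include the interferon genes, none of which passed the filter, so their count of 0 had little room to change. The log2 fold change of Irf7 ranged from 8.09 to 8.32, of Irf9 from 1.88 to 1.97, of Irf1 from 0.93 to 1.02, of Irf2 from 0.33 to 0.39 and of Irf3 from -0.35 to -0.32, and all 5 passed under each of 13 alternatives.

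Libraries were not paired by replicate number in the main fit. Same-numbered libraries shared little of their deviation from their own group (Pearson r over genes 0.0041, -0.065 and 0.015). For libraries of different number r ran from -0.084 to 0.077, and r cannot show how the cultures were prepared. With the replicate block 7 members and 8399 genes were called, and the block changed no call among the members. Shares of reads per kilobase were not run, as transcript lengths were not used here. With a pseudocount of 0.5 the genes closest to Irf7 were Cxcl3, Mx1 and Mx2, and the third neighbour changed for Irf1 (Gphn), Irf9 (St3gal6), Irf5 (Mccc1) and Irf8 (Loxl4). Depth limits Irf4 most, with a mean of 7.67 counts.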

Other observations

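Among the promoters of genes called and at least 2-fold higher in the FTO-labelled libraries, 7.89% of 938 held the ISRE core GAAANNGAAA in the 250 bases before the start, against 2.74% of 9675 tested genes and 2.66% of 865 genes called and at least 2-fold lower. For the pair with 1 base between the shares were 2.88%, 2.15% and 2.43%, for GAS 7.57%, 6.06% and 5.66%, and for the NF-κB consensus 11.8%, 8.58% and 9.71%. These are descriptions of matching letters, given without a test.

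Of the 3 IRF2-binding corepressor genes, Irf2bpl rose by 0.21 (SE 0.0539) on the log2 scale, Irf2bp2 changed by -0.18 (SE 0.0666) and Irf2bp1 by -0.15 (SE 0.106), with adjusted p-values of 0.00284, 0.0241 and 0.238 in the edgeR test. Irf2bp2 was not called in 3 alternatives (without Vector replicate 3, FTO replicate 1 or FTO replicate 3, at -0.13, -0.19 and -0.15), and Irf2bp1 was called without Vector replicate 2 (-0.26).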
